A study of Mus musculus with 79 samples.

Results

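The 10 genes that FGF signalling switches on, most of which then restrain it, were read across the tail-end cells of mouse embryos: Spry1, Spry2, Spry4, Spred1, Spred2, Dusp4, Dusp6, Etv4, Etv5 and Il17rd. These 10 were taken by symbol from the 23983 gene symbols of each expression table. The series holds 79 samples, of which the 9 bulk RNA libraries and 53 single cells were used; the 12 ATAC and 5 ChIP samples were not analysed here. All embryos were built from cultured embryonic stem cells (tetraploid complementation, where a tetraploid host supplies mainly the placenta), and pooled tail-end tissue was sorted by flow cytometry.

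The first table held sorted wild-type (WT) fractions of Theiler stage 12 (TS12): T+ Sox2+ cells, T+ cells and Sox2+ cells, all labelled C57BL/6N. T (Brachyury) is a T-box factor needed for mesoderm, and Sox2 is a factor of neural and progenitor cells. A second table, called the knockout table here, held T+ cells of T KO embryos (T2J/2J, labelled C57BL/6J) and of WT embryos (labelled C57BL/6N), each at TS12 and TS13. It also held 2 Tbx6+ samples from TS14, titled KO and WT and both labelled C57BL/6J. Genotype and strain label cannot be told apart in the T KO comparisons. For the Tbx6+ samples, title and source name give opposite genotypes, so they are called titled KO and titled WT throughout. The 53 single cells, T+ Sox2+, came from WT embryos at TS13, labelled C57BL/6N and caught on 1 microfluidic chip. How T+, Sox2+ and Tbx6+ cells were marked for sorting is not given in the sources used here.

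FGF ligands bind receptors that act through RAS and the kinase ERK, and FGF8 and its relatives keep tail-end progenitors and early paraxial mesoderm undifferentiated. ERK activity turns on a set of genes used as a readout of the pathway. Sprouty proteins (Spry) and their Spred relatives inhibit the step between receptor and ERK, Dusp6 and Dusp4 are phosphatases that inactivate ERK, Il17rd (Sef) is a membrane inhibitor of FGF signalling, and Etv4 and Etv5 are ETS transcription factors that carry the response into the nucleus.

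The genes behind the sorts were read first. T was at 4.61 FPKM (fragments per kilobase of transcript and per 1e6 mapped fragments) in the T KO library of TS12 against 69.8 FPKM in WT, and at 3.32 FPKM in T KO against 76.4 FPKM in WT at TS13. Tbx6, itself a T-box factor and active in presomitic mesoderm, was at 10.2 FPKM in titled KO and 31.5 FPKM in titled WT. Sox2 was at 16.4 FPKM in T+ Sox2+ cells, 2.82 FPKM in T+ cells and 50.5 FPKM in Sox2+ cells. In the same fractions T was at 341 FPKM in T+ Sox2+ cells, 141 FPKM in T+ cells and 192 FPKM in Sox2+ cells. The Sox2+ library therefore held more T mRNA than the T+ library and is not a T-low contrast. Estimated depth ran between 20.8 and 43.5 M fragments (M, 1e6). The lowest member of each library rested on an estimated 116 to 513 fragments per kilobase. The counting error for a single kilobase of transcript was 4.42% to 9.28%. It leaves out transcript length, embryos, sorts and library preparation. Every bulk group has 1 library, so differences between 2 libraries have no replicate check and no p-value. In bulk RNA, fewer cells of a type and less RNA per cell cannot be told apart.

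Promoters of Spry4, Dusp4 and Etv4 were not part of the search. Those of the other 7 members came from the RefSeq table (build GRCm38.p6), 8 starts in all. Each promoter held 250 bases before and 50 after its start. They were searched on both strands for GGAAGT, letters of an ETS factor core, and for GTGTGA, letters found in T-box sites; the motifs can overlap by the letters GT, and no member promoter holds both. Sequences are printed for Spry1, whose level differed most between sorted fractions, for Dusp6, the standard ERK readout, and for the 2 promoters that hold the ETS letters. Capitals mark GGAAGT or its reverse complement ACTTCC. The Spry1 gene lies on chromosome 3 at 37639947 to 37644599, Dusp6 on chromosome 10 at 99263231 to 99267489, Spred2 on chromosome 11 at 19924442 to 20024026 and Etv5 on chromosome 16 at 22381313 to 22439570.
Spry1, chr3:37639697-37639996, + strand: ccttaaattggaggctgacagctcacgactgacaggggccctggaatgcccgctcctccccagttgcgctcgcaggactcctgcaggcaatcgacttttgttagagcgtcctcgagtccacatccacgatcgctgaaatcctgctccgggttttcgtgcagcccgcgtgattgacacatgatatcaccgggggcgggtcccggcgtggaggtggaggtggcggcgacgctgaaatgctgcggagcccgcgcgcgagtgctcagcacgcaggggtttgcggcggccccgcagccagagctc
Dusp6, chr10:99262981-99263280, + strand: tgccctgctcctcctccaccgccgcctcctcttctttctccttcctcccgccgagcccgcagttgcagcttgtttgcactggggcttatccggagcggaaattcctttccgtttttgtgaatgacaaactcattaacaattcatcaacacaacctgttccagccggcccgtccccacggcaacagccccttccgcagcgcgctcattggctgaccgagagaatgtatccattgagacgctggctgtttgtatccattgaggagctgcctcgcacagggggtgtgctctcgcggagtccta
Spred2, chr11:19924192-19924491, + strand: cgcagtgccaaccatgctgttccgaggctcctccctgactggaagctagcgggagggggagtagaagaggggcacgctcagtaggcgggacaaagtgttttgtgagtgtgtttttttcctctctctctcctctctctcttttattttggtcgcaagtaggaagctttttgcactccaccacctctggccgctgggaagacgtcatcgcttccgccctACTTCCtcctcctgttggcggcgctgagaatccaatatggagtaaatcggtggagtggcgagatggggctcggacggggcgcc
Etv5, inner start, chr16:22438319-22438618, - strand: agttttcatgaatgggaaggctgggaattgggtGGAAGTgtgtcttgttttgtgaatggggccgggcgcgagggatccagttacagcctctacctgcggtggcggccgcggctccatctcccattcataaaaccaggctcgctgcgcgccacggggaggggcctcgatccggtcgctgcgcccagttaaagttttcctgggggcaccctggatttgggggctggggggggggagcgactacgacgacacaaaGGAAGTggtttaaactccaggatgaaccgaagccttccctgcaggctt

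The ETS letters stood in 2 of the 8 member promoters, against 23.8% of 32851 promoters of the whole table. In Spred2 the match begins at position -33, on the reverse strand. In Etv5 the inner start has matches at positions -217 and 2, counted in bases with the start at 0. The T-box letters were in 0 of the 8, against 14.5% of all promoters. A match describes letters in these windows only.

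Among the WT fractions, most members exceeded their T+ level in the T+ Sox2+ library, and Spry1 had the widest range. Any amount above the T+ level held for 8 of 10 members and for 46.9% of 8292 genes compared. T+ Sox2+ cells had the highest level of 5 members (Spry2, Spry4, Dusp4, Dusp6 and Etv4), Sox2+ cells that of 3 (Spry1, Etv5 and Il17rd), and T+ cells that of both Spreds. The share of all genes highest in each fraction was not computed. The sum over the members was 440 FPKM in T+ Sox2+ cells, 319 FPKM in T+ cells and 433 FPKM in Sox2+ cells.

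Spry1 was at 19.8 FPKM in T+ Sox2+ cells, 10.7 FPKM in T+ cells and 55.6 FPKM in Sox2+ cells. The fractions therefore ranked as they did for Sox2 mRNA, and the range was 5.197-fold, the widest of the 10. Spry4 was at 42.6 FPKM in T+ Sox2+ cells, 20.0 FPKM in T+ cells and 27.8 FPKM in Sox2+ cells. Spry2 was at 20.5 FPKM in T+ Sox2+ cells, 10.4 FPKM in T+ cells and 17.9 FPKM in Sox2+ cells. So all 3 Sproutys were lowest in T+ cells but peaked in different fractions.

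The ERK phosphatases were among the more abundant members. Dusp6 was at 83.1 FPKM in T+ Sox2+ cells, 49.8 FPKM in T+ cells and 80.2 FPKM in Sox2+ cells. Dusp4 was at 62.7 FPKM in T+ Sox2+ cells, 43.7 FPKM in T+ cells and 42.1 FPKM in Sox2+ cells. Dusp6 was thus low in T+ cells alone, while Dusp4 stood out in T+ Sox2+ cells.

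Il17rd was at 44.2 FPKM in T+ Sox2+ cells, 26.3 FPKM in T+ cells and 45.7 FPKM in Sox2+ cells, like Dusp6 low in T+ cells alone. Etv5 was at 56.1 FPKM in T+ Sox2+ cells, 46.5 FPKM in T+ cells and 72.2 FPKM in Sox2+ cells. Etv4 ranged between 26.9 and 35.8 FPKM, Spred1 between 20.8 and 27.4 FPKM and Spred2 between 43.1 and 57.1 FPKM. These last 3 spanned 1.33-fold or less.

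**Figure D1:**
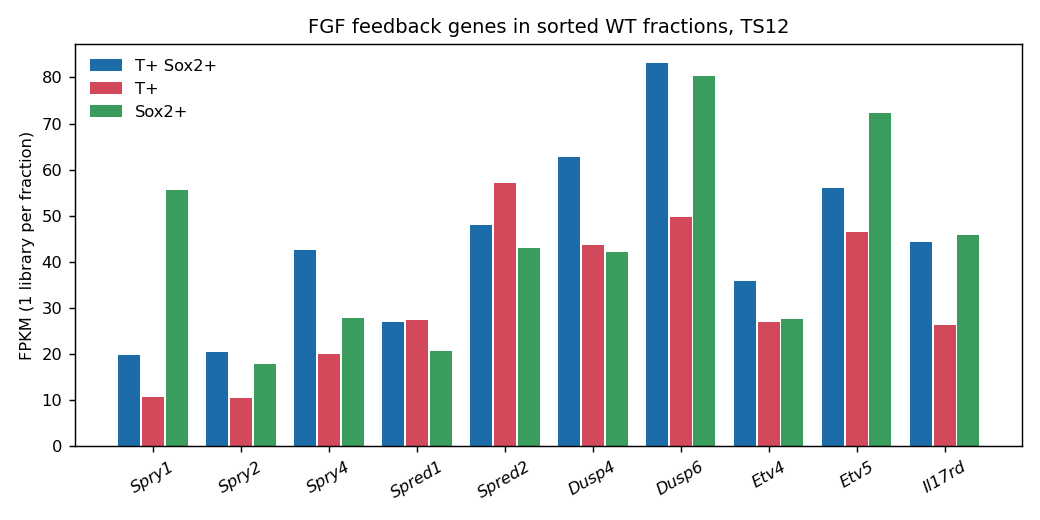
FPKM of the 10 members (vertical axis) in 1 library each of T+ Sox2+, T+ and Sox2+ WT cells at TS12. Spry1 spans 10.7 to 55.6 FPKM, and both Spreds are highest in T+ cells.

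A gene was counted as apart when log2(FPKM + 1) differed by at least 1, which is 2-fold on that scale, provided that either library reached 5 FPKM. T+ Sox2+ against Sox2+ cells put 1 of 10 members past this, Spry1 at -1.44, where 2.95% of 8272 genes passed. T+ Sox2+ against T+ cells put 1 past it, Spry4 at 1.05, with 3.18% of 8292 genes; Spry2 at 0.92 and Spry1 at 0.83 lay just inside. T+ against Sox2+ cells put 1 past it, Spry1 at -2.27, with 6.89% of 8385 genes. The members' median difference was 0.17, 0.62 and -0.54 in these 3 comparisons, in that order, against -0.01, -0.02 and 0.01 over all genes. The comparisons share libraries and are not independent.

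The T+ fraction also held markers of other cell types. Its red blood cell markers summed to 11990 FPKM, against 111 FPKM in T+ Sox2+ and 230 FPKM in Sox2+ cells, and 5 of 5 exceeded their Sox2+ levels by at least 2-fold. Its 5 lateral plate markers summed to 120 FPKM, against 15.1 FPKM in T+ Sox2+ and 4.90 FPKM in Sox2+ cells. Lateral plate markers were also present in single T+ Sox2+ cells of TS13 (below), which differ in stage and kit. Which cells carried them in the T+ fraction was not tested. The part of other cells in the lower member levels of T+ cells was not tested.

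Upstream of the members, the ligands differed more than the pathway core. Fgf8 was at 78.8 FPKM in T+ Sox2+ cells, 20.9 FPKM in T+ cells and 45.1 FPKM in Sox2+ cells. Spry2, Spry4, Dusp6 and Etv4 had the same order. Fgf17 was at 90.3 FPKM in T+ Sox2+ cells, 19.2 FPKM in T+ cells and 103 FPKM in Sox2+ cells. That is the order of Spry1, Etv5 and Il17rd. Fgf3 had the order of Dusp4, and Fgf9 that of both Spreds. The share of all genes with each order was not computed, so these matches cannot be read as particular to the members. Of 7 FGF ligands compared, 5 exceeded their T+ level by at least 2-fold in T+ Sox2+ cells, led by Fgf17 (2.18), Fgf8 (1.87), Fgf4 (1.54) and Fgf15 (1.44). Of 16 genes of the RAS-ERK core, 0 were 2-fold apart in any of the 3 comparisons. Among other brakes, Spred3 had the order of Spry1, at 10.6 FPKM in T+ Sox2+, 2.99 FPKM in T+ and 18.2 FPKM in Sox2+ cells.

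Loss of T was compared within T+ cells at each stage. At TS12 most members were a little higher in T KO, whereas at TS13 most were lower, and Spry1 was higher at both stages. Any amount higher in T KO held for 9 of 10 members and 54.2% of 7865 genes at TS12. At TS13 it held for 2 of 10 members and 44.3% of 7953 genes, so the tilt over all genes had the same direction at each stage. Spry1 was at 13.8 FPKM in T KO and 7.26 FPKM in WT at TS12, and at 19.1 FPKM in T KO and 12.02 FPKM in WT at TS13. Spry4 was at 17.3 FPKM in both libraries of TS12, and at 6.58 FPKM in T KO against 16.5 FPKM in WT at TS13. The T KO library of TS13 was the one low value of Spry4 among the 4. Spry2 was at 19.1 FPKM in T KO and 17.1 FPKM in WT at TS12, and at 18.99 FPKM in T KO and 14.8 FPKM in WT at TS13.

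The ETS factors turned round between the stages. Etv5 was at 40.8 FPKM in T KO and 29.2 FPKM in WT at TS12, and at 23.4 FPKM in T KO and 34.1 FPKM in WT at TS13. Etv4 was at 26.8 FPKM in T KO and 20.3 FPKM in WT at TS12, and at 11.8 FPKM in T KO and 17.5 FPKM in WT at TS13. For both, the 2 T KO libraries were the highest and the lowest of the 4. Spred2 was at 13.4 FPKM in T KO and 10.2 FPKM in WT at TS12, and at 8.53 FPKM in T KO and 13.7 FPKM in WT at TS13.

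Dusp6 was at 44.6 FPKM in T KO and 44.5 FPKM in WT at TS12, and at 32.1 FPKM in T KO and 52.2 FPKM in WT at TS13. Dusp4 was at 72.4 FPKM in T KO and 70.1 FPKM in WT at TS12, and at 63.9 FPKM in T KO and 79.9 FPKM in WT at TS13. Both phosphatases were near equal at TS12 and lower in T KO at TS13. Il17rd was at 28.8 FPKM in T KO and 22.2 FPKM in WT at TS12, and at 25.99 FPKM in T KO and 27.1 FPKM in WT at TS13. Spred1 stayed between 34.02 and 37.9 FPKM in the 4 libraries.

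**Figure D2:**
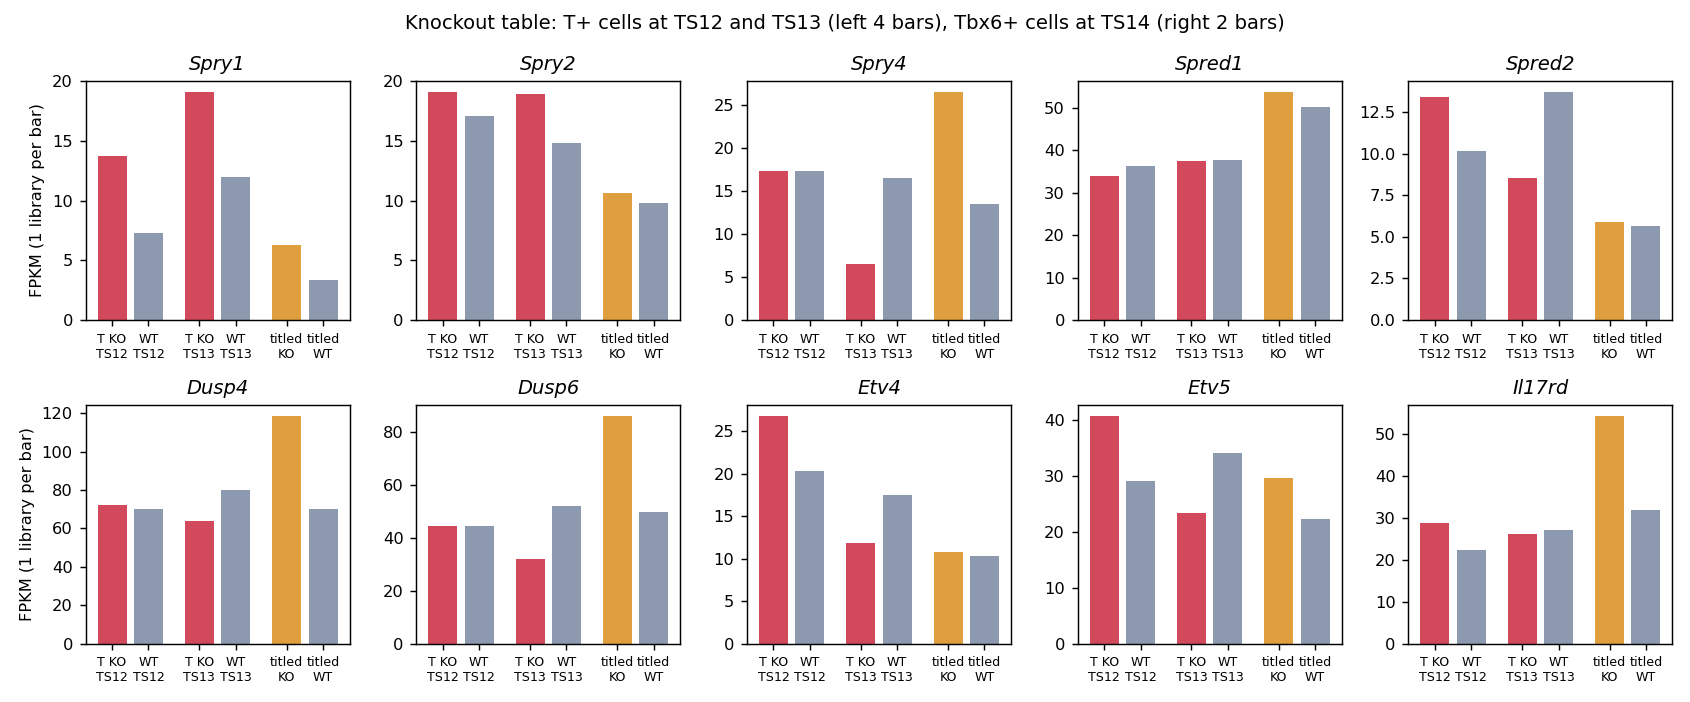
FPKM of each member (vertical axes, scaled per gene from 0) in the 6 libraries of the knockout table, 1 library per bar, T KO or titled KO left of its WT. Spry4 is lowest in T KO at TS13 (6.58 FPKM), and all 10 members are higher in titled KO than in titled WT.

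At TS12, 0 of 10 members were 2-fold apart between T KO and WT, where 2.0% of 7865 genes were, and Spry1 came nearest at 0.84. At TS13, 1 was, Spry4 at -1.21, where 2.59% of 7953 genes were. The members' median was 0.25 at TS12, against 0.03 over all genes, and -0.42 at TS13, against -0.04. Set against the WT library of TS13 instead, the T KO library of TS12 gave a median of 0.08 and a Spry1 difference of 0.18. The WT library of TS12 stood apart, with 20556 genes above 0 against 15217 to 15776 in the other 5 of its table.

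Over both stages, limma with stage and genotype as terms tested 8187 genes. It called 54 genes higher and 69 lower in T KO, 1.5% of those tested, at an adjusted p under 0.05, and 0 of the 10 members. At an unadjusted p under 0.05 there were 1027 genes, 2 of them members. Spry1 differed by 0.73 (SE 0.158) with a limma adjusted p of 0.0538, just outside the threshold, and was higher in T KO at both stages. A combination of other settings did call it: with RIKEN-numbered gene models kept and upper-quartile scaling, limma gave Spry1 an adjusted p of 0.0119 and called 284 genes. Spry4 differed by -0.60 (SE 0.242) with a limma adjusted p of 0.324. With 1 library per group, the error of this fit reflects agreement between stages and holds no embryo-to-embryo spread.

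Of the 5 FGF ligands tested by limma, 3 fell in T KO: Fgf3 by 2.27, Fgf18 by 1.77 and Fgf15 by 1.70 on the log2 scale. Not called were Fgf8 (-1.51, limma adjusted p 0.0616) and Fgf17 (-0.01, limma adjusted p 0.984). None was called among 3 receptors, 16 RAS-ERK core genes, 6 other phosphatases and RAS brakes, 8 genes of the list of other ETS factors and Cic (a repressor that ERK relieves), 5 immediate early genes and 7 heparan sulfate genes; the count is 0 in each list. Fgf8 was at 17.2 FPKM in T KO and 25.1 FPKM in WT at TS12, and at 4.49 FPKM in T KO and 30.1 FPKM in WT at TS13. The T KO library of TS13 had the least Fgf8 of the 6 in the knockout table. Among the 4 T+ libraries it was also the lowest for Spry4, Dusp6, Dusp4, Etv4, Etv5 and Spred2. It was the highest for Spry1 and next to the highest for Spry2, and Spry1, Spry2, Spred1 and Il17rd were lowest in other libraries. With the Tbx6+ libraries included, it was the lowest for 3 members (Spry4, Dusp6 and Dusp4). The share of all genes lowest in this library was not computed. Beside these, limma called 5 of 7 presomitic mesoderm markers lower and 2 of 4 neural markers higher in T KO. It also called 2 of 5 lateral plate markers lower (Foxf1 -1.24 and Osr1 -1.21), Cyp26a1 lower (-2.67) and Nkx1-2 higher (1.16) among 5 caudal progenitor markers, and Grhl3 of the surface ectoderm higher (1.09). Whether this change of cell types plays a part in the member levels was not tested.

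Between stages, WT T+ cells showed 0 of 10 members 2-fold apart, TS13 against TS12, where 1.36% of 7800 genes were. T KO cells showed 2, Spry4 at -1.28 and Etv4 at -1.11, where 1.49% of 7920 genes were. The members' median was 0.20 in WT and -0.32 in T KO. Over both genotypes limma called 18 genes, 0.22% of those tested, and 0 of 10 members; 741 genes and 3 members had an unadjusted p under 0.05. The lowest adjusted p of a member was 0.262 by limma, for Spry1. Red blood cell markers were also higher at TS13, with 4 of 5 at least 2-fold higher in each genotype. In T KO cells alone, 2 of 4 neural markers were also 2-fold higher at TS13 (Sox1 2.27 and Irx3 1.40), 2 of 5 caudal progenitor markers were lower (Wnt3a -2.29 and Cdx4 -1.05), Osr1 of the lateral plate was lower (-1.35), and Fgf8 was lower (-1.73). The part of these in the Spry4 and Etv4 values was not tested.

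In the Tbx6+ cells of TS14 every member was higher in titled KO, 5 of them by more than 0.7 on the log2 scale. Dusp6 was at 86.1 FPKM in titled KO and 49.9 FPKM in titled WT. Dusp4 was at 118 FPKM in titled KO and 70.2 FPKM in titled WT. Il17rd was at 54.1 FPKM in titled KO and 31.8 FPKM in titled WT. For all 3, titled KO was the highest library of its table.

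Spry4 was at 26.5 FPKM in titled KO and 13.5 FPKM in titled WT, and titled KO was again the highest of the 6 libraries. Spry1 was at 6.29 FPKM in titled KO and 3.39 FPKM in titled WT, below every T+ library. Etv5 was at 29.7 FPKM in titled KO and 22.4 FPKM in titled WT. Spry2, Spred1, Spred2 and Etv4 were nearly level, at 10.6, 53.7, 5.90 and 10.8 FPKM in titled KO and 9.78, 50.3, 5.66 and 10.3 FPKM in titled WT.

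None of the members was 2-fold apart (0 of 10), where 4.07% of 7721 genes were, and the largest differences were Spry4 at 0.92, Dusp6 at 0.78, Il17rd at 0.75, Dusp4 at 0.75 and Spry1 at 0.73. Any amount higher held for 10 of 10 members and for 44.9% of all genes compared, and the members' median was 0.56 against -0.04. Of 7 FGF ligands compared, 3 were at least 2-fold higher in titled KO (Fgf8 1.51, Fgf17 1.50 and Fgf4 1.19) and Fgf9 was lower (-1.61). Fgf8 was at 46.7 FPKM in titled KO and 15.7 FPKM in titled WT. In the RAS-ERK core 0 of 15 genes passed.

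The pair differed in cell markers too. Of 5 caudal progenitor markers compared, 4 were at least 2-fold higher in titled KO, and of 7 presomitic mesoderm markers 4 were lower. Red blood cell markers summed to 257 FPKM in titled KO and 0.810 FPKM in titled WT. Endothelial markers summed to 6.03 FPKM in titled KO and 24.8 FPKM in titled WT. The part of these cells in the member differences was not tested.

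**Figure D3:**
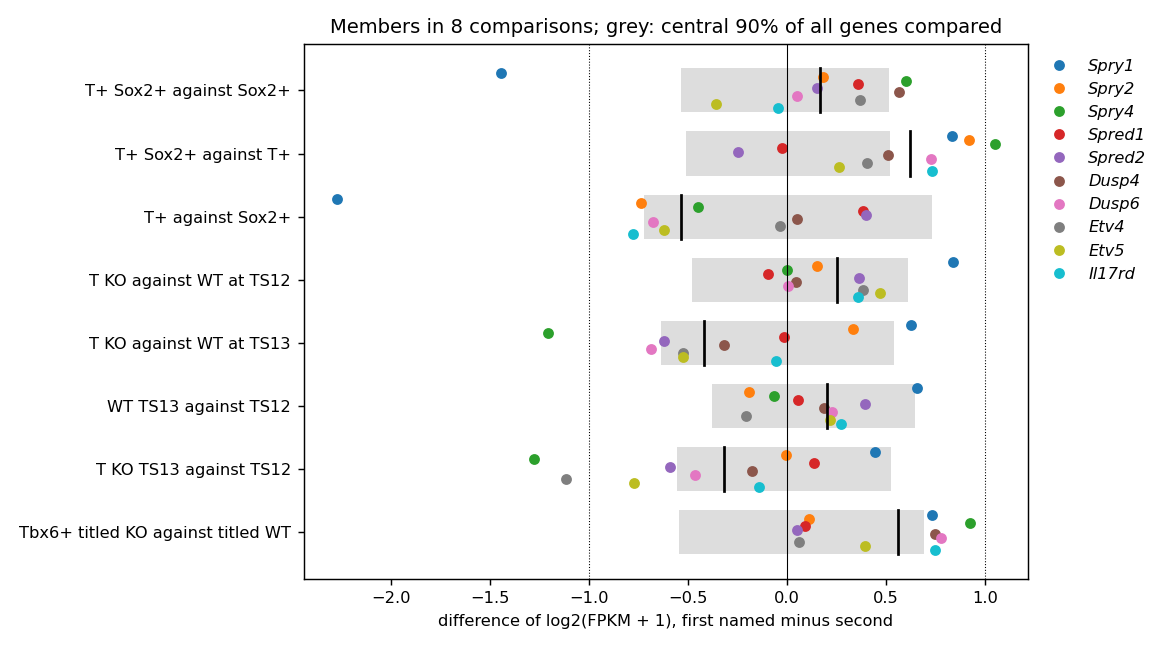
Differences of log2(FPKM + 1) (horizontal axis) of the 10 members in 8 comparisons, first named library minus second, with the members' median as a black line and the central 90% of all genes compared in grey. Spry1 lies at -2.27 in T+ against Sox2+ cells, and all members lie above 0 in the Tbx6+ pair.

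In single T+ Sox2+ cells the members were widely present, and Etv5 was the one found in all 53. The cells come from 1 chip, are not replicates, and had 3913 to 8550 kept genes at 1 FPKM or more. Depth per cell is unknown, and a value of 0 can be a transcript that was missed. Lateral plate markers reached 1 FPKM in many cells: Foxf1 in 46, Hand1 in 36, Osr1 in 34, Hand2 in 21 and Prrx1 in 11. Of 5 red blood cell markers, Alas2 reached 1 FPKM in 5 cells (9.43%), and Hba-x, Hbb-y, Hbb-bh1 and Slc4a1 in 0 cells, which for each of these allows a share of up to 5.66% of cells (3 counts of 53, counting error only).

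Etv5 ran between 2.06 and 228 FPKM with a median of 53.8 FPKM. Dusp6 ran between 0 and 270 FPKM with a median of 59.8 FPKM, and reached 1 FPKM in 49 cells (92.5%, exact binomial 95% interval 81.8% to 97.9%). These had the highest medians, and the coefficient of variation was 0.693 for Etv5, the lowest of the 10, and 0.847 for Dusp6. Il17rd had a median of 14.5 FPKM, a highest value of 52.96 FPKM and 51 cells at 1 FPKM. Spry4 had a median of 18.4 FPKM, a highest value of 114 FPKM and 49 cells.

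Spred1 and Dusp4 each reached 1 FPKM in 43 cells, with medians of 15.96 and 17.9 FPKM. Spry2 did in 41 cells with a median of 17.9 FPKM, and Etv4 in 37 with a median of 4.53 FPKM. Spry1 was split, with 29 cells at 1 FPKM or more (54.7%, exact binomial 95% interval 40.4% to 68.4%), where its median was 18.4 FPKM, and 19 cells at 0. Spred2 was the rarest, in 14 cells (26.4%), although bulk T+ Sox2+ cells of TS12 had 48.0 FPKM. The tables differ in stage, kit and RNA selection, which cannot be told apart. Spred2 also differed between the bulk tables in T+ WT cells of TS12. It was at 57.1 FPKM in the first table and 10.2 FPKM in the knockout table.

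**Figure D4:**
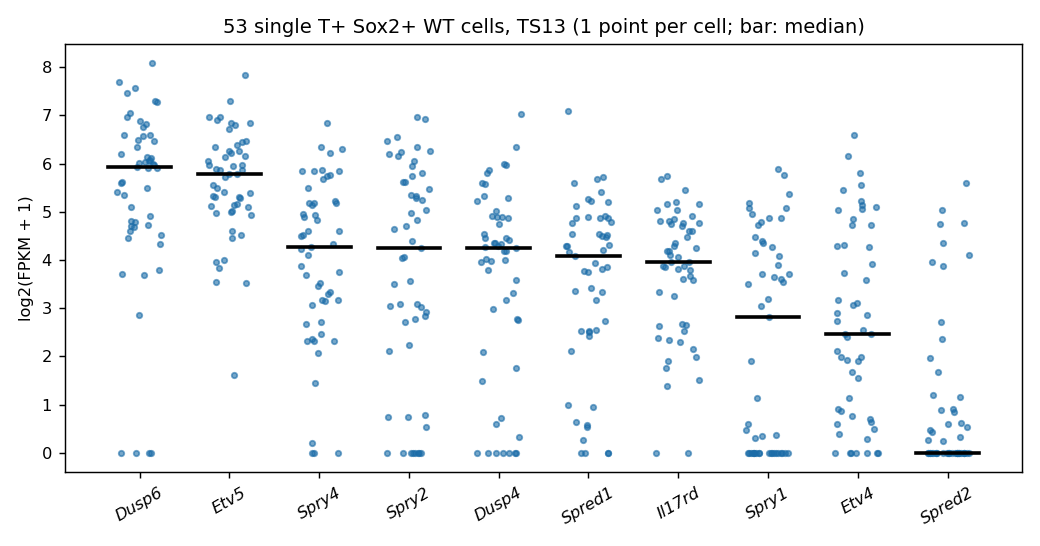
log2(FPKM + 1) of each member (vertical axis) in 53 T+ Sox2+ WT cells of TS13, 1 point per cell with the median as a bar, members ordered by median FPKM. Dusp6 and Etv5 lead, and the Spred2 median is 0.

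Each cell held 5 to 10 of the members at 1 FPKM or more, and 6 cells held all 10. Levels of members were only weakly related across cells. Over 45 pairs Spearman's rho ran between -0.18 and 0.41 with a median of 0.12, and 37 pairs were above 0. Pairs of other genes were not computed, so neither the median nor the count can be read as particular to the members. Spry1 with Spred1 was highest at 0.41, and Spry4 with Etv4 lowest at -0.18. The mean of the members followed the number of genes detected in a cell (rho 0.58, n = 53). Single members had between -0.02 (Dusp6) and 0.68 (Spry1), where the median gene had 0.18. Fgf8 was in all 53 cells with a median of 128 FPKM, and its rho with the members' mean was 0.13. With single members Fgf8 had between -0.16 (Etv5) and 0.34 (Il17rd), where the median gene had 0.0056. A mean of 10 genes is not a like measure to single genes, so only the single members can be set against the median gene. The members' mean had a rho of 0.28 with Fgf3 and 0.25 with Fgf4. Among single members, Etv4 had 0.41 with Fgf15, Spry1 0.38 with Fgf3, Il17rd 0.34 with Fgf8 and Spry4 0.30 with Fgf17. At the other end, Dusp4 had -0.19 with Fgf17. Of these ligands, the value of the median gene was computed for Fgf8 alone. All of these are descriptions of 53 cells that differ in genes detected. Within these cells Spry1 had a rho of 0.10 with Sox2 and -0.06 with T.

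The 5 genes most like the members' mean over the 53 cells, among 6908 searched, were Zdhhc4 (rho 0.62), Troap (0.60), Mycn (0.59), Ptma (0.58) and Klhl21 (0.58). The median gene had 0.12. These values are of the size of the relation to genes detected.

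**Figure D5:**
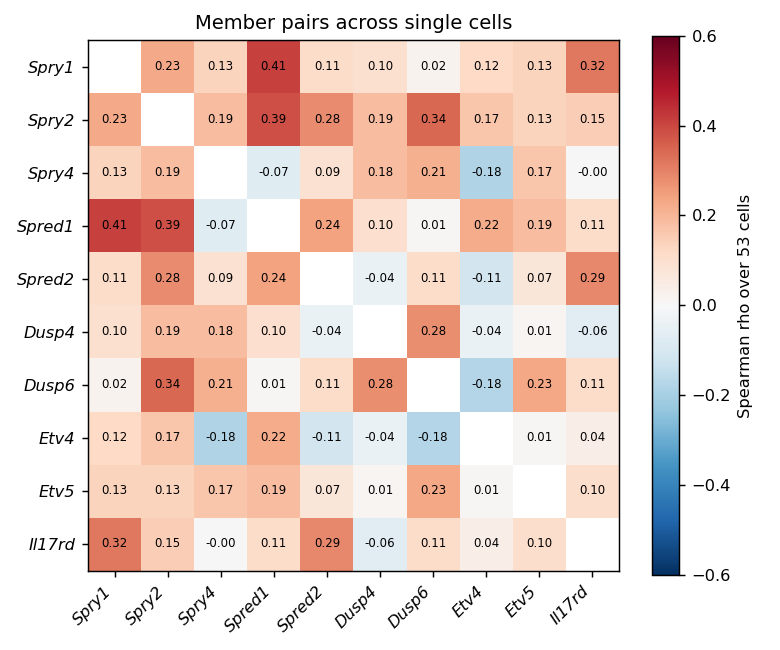
Spearman's rho over 53 cells for each pair of members (both axes), coloured on a scale of -0.6 to 0.6. Most squares are pale, and Spry1 with Spred1 is highest at 0.41.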

How the data were processed

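RNA was read in 9 bulk libraries, 1 per group, and 53 cells. The authors deposited FPKM values, 1 per symbol. Tools named by the submitters' processing notes are TopHat2 2.1.0, Bowtie 1.1.2, Cufflinks 2.2.1, Cuffdiff, Cuffnorm, bedtools 2.23.0, Picard 1.103 and SAMtools on mm10 (GRCm38); the sources used here give neither their roles nor the scaling. Per the labels' protocols, the sort table used TotalScript and the knockout table strand-specific ScriptSeq v2 after ribosomal RNA depletion, so tables were read separately.

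Differences are of log2(FPKM + 1) and understate low genes. Of 23983 symbols, 19735 were kept after leaving out small RNAs, numbered gene models, mitochondrial genes, ribosomal pseudogenes and joined symbols; counts leave out T, Sox2 and Tbx6. The removal of RIKEN-numbered gene models was widened after a first limma result had been seen, and results with them kept are given below. limma 3.58.1 (R 4.3.3; empirical Bayes with trend, Benjamini-Hochberg, threshold 0.05) was fitted to the 4 T+ libraries, with 1 residual degree of freedom, and tested on simulated data. Depth was estimated from whole-fragment steps of low genes, and 10.9% to 37.7% of those genes lay on the steps, depending on the library. All members were named, with at most 4 passing genes of each pathway list and the 5 genes most alike over the cells. Members and lists were chosen with earlier results of these data known.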

Additional observations from a re-analysis of the deposited data

Results flagged for a closer look

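In 3 members the T KO difference from WT pointed in opposite directions at the 2 stages by at least 0.25 each way (log2). Etv5 was at 0.47 at TS12 and -0.53 at TS13, a change of -0.993. Etv4 was at 0.38 and -0.52, a change of -0.905. Spred2 was at 0.36 and -0.62, a change of -0.988. The difference between the stages was not tested, since each group has 1 library. The same pattern, higher at TS12 and lower at TS13, held for 3.37% of 8187 genes. Against the WT library of TS13, the T KO library of TS12 differed by 0.249 for Etv5, 0.59 for Etv4 and -0.03 for Spred2. With that control Etv4 alone reached 0.25 each way. Etv5 fell just short of it and kept its direction, while Spred2 did not keep its direction. The TS12 values of all 3 thus depend on the WT library used.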

How the results depend on the processing

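With a pseudocount of 5, 0 members were 2-fold apart in T+ Sox2+ against T+, in T KO against WT at TS13 and in T KO TS13 against TS12, and the Tbx6+ median was 0.38. With the T+ WT TS13 library as control, the TS12 median was 0.076. limma's genotype calls over all genes, 123 as reported, were 0 with no minimum, 21 with a minimum of 20 FPKM, 78 with upper-quartile scaling and 21 with no stage term. Leaving out 1 library, with no stage term, gave 15 without T+ WT TS12, 17 without T+ T KO TS12, 19 without T+ WT TS13 and 6 without T+ T KO TS13. Stage calls, 18 as reported, were 0, 4 and 11 with no minimum, a minimum of 20 FPKM and upper-quartile scaling.

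The gene filter was settled after a limma result had been seen, and 1 member call turns on it. With RIKEN-numbered gene models kept, Spry1 had an adjusted p of 0.0687 and 91 genes were called, 0 of them members. With them kept and upper-quartile scaling, limma called 284 genes and 1 member, Spry1 (0.74, adjusted p 0.0119), and 116 genes by stage; with upper-quartile scaling and the models left out, Spry1 had 0.0748. The minimum of 20 FPKM tested 6 members and left out Spry1, Spry2, Spry4 and Spred2. Over the other limma genotype settings, Spry1's difference stayed between 0.40 and 1.06 and its adjusted p between 0.0119 and 0.916. The other 9 members were called in 0 of the settings that tested them. The cause was not tested. Spred2 was in 25 cells at any value over 0 and in 9 at 5 FPKM; 0 cells had fewer than 3000 genes, so that alternative changed nothing. No paired analysis was possible because the groups share fewer than 2 replicate numbers; stage is already a term of the fit as reported.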
